A study of Mus musculus with 18 samples.

Results

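The DNA methylation and demethylation enzymes examined here were 9 of the 55487 genes counted: Dnmt1, Uhrf1, Dnmt3a, Dnmt3b, Dnmt3l, Tet1, Tet2, Tet3 and Tdg. They were chosen by symbol for what their proteins do to cytosines, with earlier results of these data known. All 9 passed the filter on low counts in every comparison. DNMT1, brought to newly replicated DNA by UHRF1, copies methylation to the daughter strand, DNMT3A and DNMT3B place new methylation with the inactive cofactor DNMT3L, TET1, TET2 and TET3 oxidize 5-methylcytosine, and the glycosylase TDG excises the oxidized bases for base excision repair. mESCs of the inner cell mass type have little methylated DNA in the naïve state and gain methylation as they move towards the post-implantation epiblast, a step at which the de novo enzymes are known to rise.

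The RNA came from IκBα-WT and IκBα-KO clones of the mouse line ES-E14TG2a, as mESCs kept in Serum/LIF, in which the cytokine LIF supports self-renewal, and as embryoid bodies (EBs), the aggregates in which mESCs differentiate, at 48 hr and 96 hr. By the labels each stage holds 3 WT and 3 KO clones, 18 libraries in all, of which the 6 mESC libraries are 3 of each genotype. The KO clones were made with Cas9 and a pair of guides in exon 1 of Nfkbia, the gene of IκBα, and grown from single sorted cells. The WT clones received non-targeting guides. The paper selected 3 independent clones per genotype, so the libraries of a stage stand for different clones. The 18 libraries are not 18 clones, since each EB clone code occurs at 48 hr and at 96 hr. The count columns of the EBs carry the clone codes D4, E2, E3, E14, H7 and H9, which no label pairs with a genotype, so genotypes were compared in mESCs only and each EB stage was taken as 6 libraries that hold both genotypes.

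Between 28287582 and 40904247 reads were counted on genes per library. Nfkbia had 34.2, 35.1 and 25.3 CPM (the count relative to library size, scaled by edgeR's TMM method) in WT clones 1 to 3 and 10.2, 9.44 and 10.1 CPM in KO clones 1 to 3. KO clone 2 stood apart from the other KO clones: in 43 of 255 windows of 10 Mb its median gene lay more than 0.25 log2 units from the WT mean, against 11 and 12 windows in KO clones 1 and 3 and 0 in each WT clone. KO clones 1 and 3 shared 11 of these windows, and their window medians correlated at 0.937 over all 255 windows, against 0.354 and 0.362 for KO clone 2 with either. Whether KO clones 1 and 3 arose separately was not tested. If they share an origin, the KO group holds fewer than 3 independent clones, and its SDs and p-values are too small. The 5 pluripotency markers (Pou5f1, Nanog, Sox2, Zfp42 and Esrrb) summed to 2834 to 3645 CPM in mESCs, 1415 to 2070 CPM in 48 hr EBs and 605 to 1551 CPM in 96 hr EBs. The 5 primitive streak and mesoderm markers (T, Mixl1, Eomes, Mesp1 and Kdr) summed to at most 11.4 CPM in mESCs and to 14.6 to 1072 CPM in 96 hr EBs, and the 4 fibroblast and 4 trophoblast markers summed to at most 16 and 9.43 CPM in mESCs. The 4 endoderm markers summed to 2.64 to 3.66 CPM in WT mESCs and to 2.82, 21.7 and 29.1 CPM (lowest, median and highest) in KO mESCs. Their log2 fold changes were 2.03 (Gata4), 3.08 (Gata6), 3.21 (Sox17) and 2.2 (Foxa2), with edgeR adjusted p of 0.104, 0.0741, 0.0643 and 0.21, and their part in the KO values of the enzymes was not tested.

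On GRCm38 the genes lie at chr9:20907209-20959888 (Dnmt1, minus strand), chr17:56303321-56323486 (Uhrf1, plus), chr12:3806007-3914443 (Dnmt3a, plus), chr2:153649450-153687730 (Dnmt3b, plus), chr10:78041947-78063622 (Dnmt3l, plus), chr10:62804570-62908996 (Tet1, minus), chr3:133463679-133545139 (Tet2, minus), chr6:83362373-83459084 (Tet3, minus) and chr10:82629828-82650799 (Tdg, plus). Exons of 4 of them share bases with those of a neighbour, 133 bases in Dnmt3a (with Dnmt3aos), 67 in Dnmt3l (Aire), 43 in Tet2 (Gm42567) and 367 in Tdg (Glt8d2). No strand setting is named for the counting, so reads there cannot be assigned with certainty. RefSeq start sites (GRCm38.p6) matched all 9 genes, with 16 promoter windows of 250 bases before to 50 bases after a start. The promoters of Dnmt3b and Tet2 are shown because these genes had the largest fitted log2 fold changes between the IκBα genotypes, of which only that of Dnmt3b passed the test, and each has a single start. CG dinucleotides, the substrate of the enzymes, are in capitals.
Dnmt3b promoter, chr2:153649199-153649498, plus strand: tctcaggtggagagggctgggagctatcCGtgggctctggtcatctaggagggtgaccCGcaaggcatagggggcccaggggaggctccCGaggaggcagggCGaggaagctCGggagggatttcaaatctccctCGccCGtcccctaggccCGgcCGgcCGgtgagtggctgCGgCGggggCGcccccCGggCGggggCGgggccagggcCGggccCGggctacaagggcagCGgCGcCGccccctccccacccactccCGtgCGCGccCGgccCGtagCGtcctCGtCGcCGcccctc
Tet2 promoter, chr3:133544341-133544640, minus strand: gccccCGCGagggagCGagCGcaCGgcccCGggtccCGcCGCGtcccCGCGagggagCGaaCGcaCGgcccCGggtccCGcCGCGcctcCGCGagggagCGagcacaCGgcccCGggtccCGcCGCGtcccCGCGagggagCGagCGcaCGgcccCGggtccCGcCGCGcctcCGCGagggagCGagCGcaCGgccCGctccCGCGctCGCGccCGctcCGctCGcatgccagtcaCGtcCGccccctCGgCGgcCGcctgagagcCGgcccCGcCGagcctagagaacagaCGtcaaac
The Dnmt3b window holds 30 CG dinucleotides and the Tet2 window 57. Among 32851 promoter windows of this length the median was 7, and 11.7% and 0.152% held as many. The starts of Dnmt3l held 6, 4 and 3. The κB consensus bound by NF-κB, the factor that IκBα restrains, was searched on both strands. Its first match on the gene strand of the Dnmt3b window was GGGAGGCTCC, from position -171 relative to the start. The consensus also matched a stretch of the Tdg window, and it matched 8.46% of all windows. Further matches within a window were not listed. The E2F letters TTTGGCGC or TTTCCCGC were in 1 of the 16 windows, at a Dnmt1 start, against 1.56% of all windows. The letters of the octamer ATGCAAAT were in 0 of them, against 1.74%, and those of CACGTG were in 3, against 7.15%. These matches describe the letters only.

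In mESCs, which addressed whether the enzymes differ without IκBα, Dnmt3b was lower in IκBα-KO clones and the other 8 genes did not pass the threshold. edgeR's quasi-likelihood test called 1046 of 21843 genes (4.79%) at an adjusted p under 0.05, 3.09% higher and 1.69% lower. Of the 9 enzymes 1 was called lower and 0 higher, and their median log2 fold change was -0.13 against 0.015 over all genes tested. With an absolute log2 fold change over 1 also required, 1.7% of all genes were called (1.06% higher, 0.641% lower) and 0 of the 9. In bulk RNA, fewer cells with a transcript and less transcript per cell cannot be told apart.

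Dnmt3b had 577, 693 and 887 CPM in WT clones 1 to 3 and 354, 426 and 370 CPM in KO clones 1 to 3. Every KO clone was below every WT clone, and the WT clones varied more than the KO clones. The WT mean was 719 ± 157 CPM (SD, n = 3) and the KO mean 383 ± 37.6 CPM (SD, n = 3). The log2 fold change was -0.91, with a standard error of 0.14 and an edgeR adjusted p of 0.0147. An exact two-sided permutation test gave p = 0.1, which is the smallest value possible with 3 clones on each side. The call depended on single clones: the edgeR adjusted p was 0.095 without WT clone 2, 0.0585 without WT clone 3, 0.0583 without KO clone 1 and 0.0636 without KO clone 3, with log2 fold changes of -0.94, -0.74, -0.86 and -0.89. Over all alternatives it ran from 1.79e-06 to 0.095. Against the WT mean, the median gene of the 10 Mb around Dnmt3b lay at 0.06, -0.04 and 0 log2 units for KO clones 1, 2 and 3, and Dnmt3b itself lay at -0.99, -0.75 and -0.93. Of 10 genes of the formative and primed epiblast, 4 were lower in the same clones and 1 was higher, against 1.69% and 3.09% of all genes. Of 10 naïve state genes 0 were lower and 1 was higher (Zfp42). The part of cell state in the level of Dnmt3b was not tested.

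Its partners in de novo methylation differed less. Dnmt3a had 130, 130 and 151 CPM in WT clones and 134, 135 and 155 CPM in KO clones (log2 fold change 0.04, standard error 0.09, edgeR adjusted p = 0.828). The Dnmt3a ranges overlapped in part, and without KO clone 3 the log2 fold change turned to -0.035. The median gene of the 10 Mb around Dnmt3a was at -0.39 in KO clone 2, and with an offset for each such window the log2 fold change was 0.17 (edgeR adjusted p = 0.444). Dnmt3l had 470, 513 and 563 CPM in WT and 418, 444 and 497 CPM in KO clones (-0.19, standard error 0.09, edgeR adjusted p = 0.266), with overlapping ranges.

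For maintenance, Dnmt1 had 335, 332 and 338 CPM in WT and 309, 256 and 322 CPM in KO clones (-0.18, standard error 0.09, edgeR adjusted p = 0.308). The KO clones lay below the WT clones, KO clone 2 by the most, at -0.41 log2 units from the WT mean. The median gene of the 10 Mb around Dnmt1 was at -0.39 in KO clone 2 and at 0.01 and -0.05 in KO clones 1 and 3. With an offset for each 10 Mb window, the log2 fold change of Dnmt1 was -0.049 (standard error 0.06, edgeR adjusted p = 0.681). Uhrf1 had 436, 411 and 403 CPM in WT and 331, 462 and 350 CPM in KO clones (-0.13, edgeR adjusted p = 0.554). KO clone 2 was above every WT clone and the other KO clones were below them, and without KO clone 2 the log2 fold change was -0.28 (edgeR adjusted p = 0.00378). That value rests on KO clones 1 and 3 alone, whose windows were alike.

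Among the oxidizing enzymes the signs differed. Tet1 had 552, 612 and 509 CPM in WT and 478, 544 and 456 CPM in KO clones (-0.18, standard error 0.09, edgeR adjusted p = 0.281). Tet2 had 136, 143 and 106 CPM in WT and 188, 133 and 192 CPM in KO clones (0.42, standard error 0.16, edgeR adjusted p = 0.191). KO clone 2 lay inside the WT range of Tet2 while KO clones 1 and 3 lay above it, and without KO clone 2 the log2 fold change was 0.57 (edgeR adjusted p = 0.0313), while that of Tet1 was -0.25 (adjusted p = 0.0331), both again from KO clones 1 and 3 alone, whose independence was not tested. Tet3, the least abundant of them, had 14, 14.8 and 14.1 CPM in WT and 16.1, 16.7 and 18.6 CPM in KO clones. The Tet3 ranges of the genotypes did not overlap, but its log2 fold change of 0.26 (standard error 0.1) had an edgeR adjusted p of 0.196. Tdg had 48.5, 51.7 and 55.9 CPM in WT and 46.4, 46.8 and 50.9 CPM in KO clones (-0.12, edgeR adjusted p = 0.468).

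**Figure D1:**
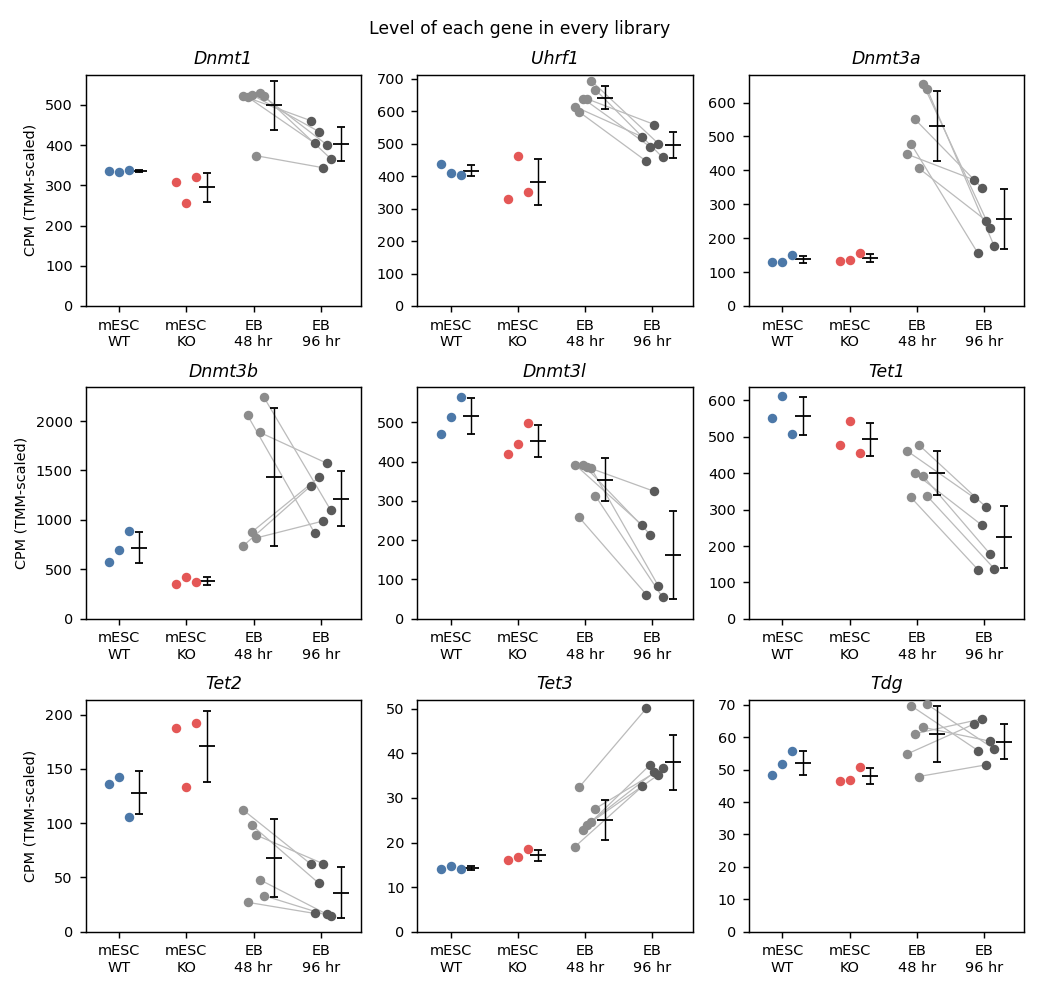
CPM (linear axes from 0) of the 9 enzymes in every library, for the 3 WT and 3 KO mESC clones, 6 EBs at 48 hr and 6 EBs at 96 hr. Points are libraries, thin lines join EB libraries with the same clone code, and the black marks are the group mean and SD. Dnmt3b was 354 to 426 CPM in KO and 577 to 887 CPM in WT mESCs, and it ranged from 740 to 2245 CPM in 48 hr EBs.

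By the fitted stage means, Dnmt3a, Dnmt3b, Dnmt1, Uhrf1, Tet3 and Tdg were higher in EBs than in mESCs, and Dnmt3l, Tet1 and Tet2 were lower by 96 hr. Single EB libraries overlapped the mESC range for Dnmt3b and Tdg at 48 hr and 96 hr, and for Uhrf1 at 96 hr. In the edgeR fit of all 18 libraries, 7053 of 25318 genes (27.9%) were called at 48 hr against mESCs, 14.9% higher and 13% lower. Of the enzymes 6 were called higher, 1 lower and 2 were not called. At 96 hr against 48 hr 27.7% of all genes were called, 13.9% higher and 13.8% lower, and of the enzymes 1 was higher, 5 were lower and 3 were not called. At 96 hr against mESCs 43% of all genes were called, 22.7% higher and 20.3% lower, and 6 enzymes were higher and 3 lower. Their median log2 fold changes were 0.66, -0.37 and 0.31 in these comparisons, against 0.004, -0.029 and -0.008 over all genes tested. With an absolute log2 fold change over 1 also required, 3 enzymes were called at 48 hr against mESCs (background 9.57%, of which 4.62% higher and 4.95% lower), 2 at 96 hr against 48 hr (11.9%, of which 7.1% higher and 4.76% lower) and 5 at 96 hr against mESCs (20.8%, of which 11.2% higher and 9.65% lower). The comparisons share libraries and are not independent. Stage was the only term in the fit of all 18 libraries, so differences by genotype and by clone code stayed in its unexplained spread. The exact permutation tests of stages also left the clone code out.

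Dnmt3a changed most at 48 hr. It had 130 to 155 CPM in mESCs (median 134), 406 to 656 CPM at 48 hr (median 515) and 155 to 372 CPM at 96 hr (median 241). No 48 hr library overlapped another stage, and every clone code was lower at 96 hr than at 48 hr. The log2 fold change was 1.93 at 48 hr against mESCs (standard error 0.19, edgeR adjusted p = 7.62e-07), -1.05 from 48 hr to 96 hr (0.18, 0.000602) and 0.88 at 96 hr against mESCs (0.18, 0.000813).

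Dnmt3b, the most abundant of the 9 per length in EBs, had 354 to 887 CPM in mESCs (median 501), 740 to 2245 CPM at 48 hr (median 1380) and 865 to 1573 CPM at 96 hr (median 1220). Against mESCs its log2 fold changes were 1.38 at 48 hr (standard error 0.3, edgeR adjusted p = 0.0019) and 1.14 at 96 hr (0.3, 0.00476). Against WT mESC clones alone the edgeR adjusted p was 0.0445 at 48 hr, and the value at 96 hr was 0.76 with an edgeR adjusted p of 0.0886. At 48 hr D4, E2 and E3 had 740, 875 and 816 CPM, inside the WT mESC range of 577 to 887 CPM. E14, H7 and H9 had 2058, 1886 and 2245 CPM, so the 48 hr median lies where there was no library. From 48 hr to 96 hr the difference was -0.24 (standard error 0.29, edgeR adjusted p = 0.581), and the clone codes moved in opposite directions: Dnmt3b was higher at 96 hr by 0.86, 0.71 and 0.28 log2 units in D4, E2 and E3 and lower in E14, H7 and H9, by -1.25, -0.26 and -1.03. The difference between the stage means thus averages over opposite courses.

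Dnmt3l, the cofactor without activity of its own, had 418 to 563 CPM in mESCs (median 484), 258 to 392 CPM at 48 hr (median 384) and 55.1 to 324 CPM at 96 hr (median 148). At 48 hr every EB library was below every mESC library (p = 0.00216 by exact two-sided permutation, the lowest value possible for 6 against 6), but the edgeR fit, which shares its spread with the 96 hr libraries, gave -0.45 (standard error 0.34, adjusted p = 0.353). From 48 hr to 96 hr it fell by 1.12 on the log2 scale (edgeR adjusted p = 0.0209), without the low-count filter with an adjusted p of 0.0548. All 6 clone codes were lower at 96 hr, by -0.25 (E3) to -2.51 (H9). Compared with mESCs, Dnmt3l at 96 hr was lower by -1.57 (standard error 0.34, edgeR adjusted p = 0.00126).

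Dnmt1 and Uhrf1 moved together in both steps. Dnmt1 had 256 to 338 CPM in mESCs (median 327), 374 to 529 CPM at 48 hr (median 523) and 344 to 461 CPM at 96 hr (median 403). Uhrf1 had 331 to 462 CPM (median 407), 598 to 694 CPM (median 638) and 446 to 559 CPM (median 495). At 48 hr all EB libraries were above all mESC libraries for both genes. The log2 fold changes at 48 hr were 0.66 for Dnmt1 (standard error 0.09, edgeR adjusted p = 2.97e-05) and 0.69 for Uhrf1 (0.08, 3.23e-06). From 48 hr to 96 hr both fell in all 6 clone codes, with log2 fold changes of -0.31 (edgeR adjusted p = 0.0175) and -0.37 (0.00194). At 96 hr they were still 0.35 and 0.31 above mESCs (edgeR adjusted p = 0.00484 and 0.00285), although against WT mESC clones alone the value for Dnmt1 was 0.26 with an adjusted p of 0.077. E3 was the lowest library for Dnmt1 at both times, with 374 and 344 CPM, and the median gene of the 10 Mb around Dnmt1 was at -0.45 and -0.36 relative to the stage median in E3, against -0.03 to 0.07 in the other libraries. The part of this shift was not tested. Both genes are known to be induced with S phase, and of 16 S phase genes 7 were higher and 0 lower at 48 hr and 11 were lower at 96 hr against 48 hr, where 14.9% of all genes were higher and 13% lower in the first comparison and 13.8% lower in the second. Their summed level ranged from 4333 to 4632 CPM in mESCs, 4895 to 5468 CPM at 48 hr and 3768 to 4856 CPM at 96 hr, and its part in the levels of Dnmt1 and Uhrf1 was not tested.

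The TET genes separated. Tet1 had 456 to 612 CPM in mESCs (median 526), 334 to 478 CPM at 48 hr (median 396) and 135 to 333 CPM at 96 hr (median 218). Its log2 fold change was -0.39 at 48 hr (standard error 0.19, edgeR adjusted p = 0.145, and p = 0.00866 by exact two-sided permutation), -0.83 from 48 hr to 96 hr (0.19, adjusted p = 0.00444) and -1.22 at 96 hr against mESCs (0.19, adjusted p = 7.02e-05). No 96 hr library overlapped the earlier stages.

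Tet2 had 106 to 192 CPM in mESCs (median 139), 27.1 to 112 CPM at 48 hr (median 68.6) and 14.1 to 62.8 CPM at 96 hr (median 30.7). At 48 hr the log2 fold change was -1.14 (standard error 0.41, edgeR adjusted p = 0.0466), a call that did not hold without the low-count filter (adjusted p = 0.0847), with the mESC genotypes as separate groups (0.0533), or against WT (0.217) or KO clones alone (0.0594). From 48 hr to 96 hr it was -0.91 (standard error 0.41, edgeR adjusted p = 0.106). With the clone code as a block it was -0.96 (standard error 0.13, edgeR adjusted p = 0.000906), and Tet2 was lower at 96 hr in all 6 clone codes. At 96 hr against mESCs Tet2 was lower by -2.05 (0.42, edgeR adjusted p = 0.000766), the largest decrease among the 9 genes.

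Tet3 was the TET gene that rose. It had 14 to 18.6 CPM in mESCs (median 15.5), 19.1 to 32.4 CPM at 48 hr (median 24.3) and 32.6 to 50.1 CPM at 96 hr (median 36.2), and no stage overlapped the next. The log2 fold change was 0.67 at 48 hr (standard error 0.12, edgeR adjusted p = 0.000458), 0.6 from 48 hr to 96 hr (0.12, 0.00204) and 1.27 at 96 hr against mESCs (0.13, 4.23e-07). Tdg, which acts after the TET enzymes, changed least, with 46.4 to 55.9 CPM in mESCs (median 49.7), 47.9 to 70.2 CPM at 48 hr (median 62.1) and 51.5 to 65.7 CPM at 96 hr (median 57.6). Its log2 fold changes against mESCs were 0.29 at 48 hr (edgeR adjusted p = 0.0215) and 0.23 at 96 hr (0.045). Against WT mESC clones alone these adjusted p were 0.162 and 0.245, and against KO clones alone the second was 0.0504.

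**Figure D2:**
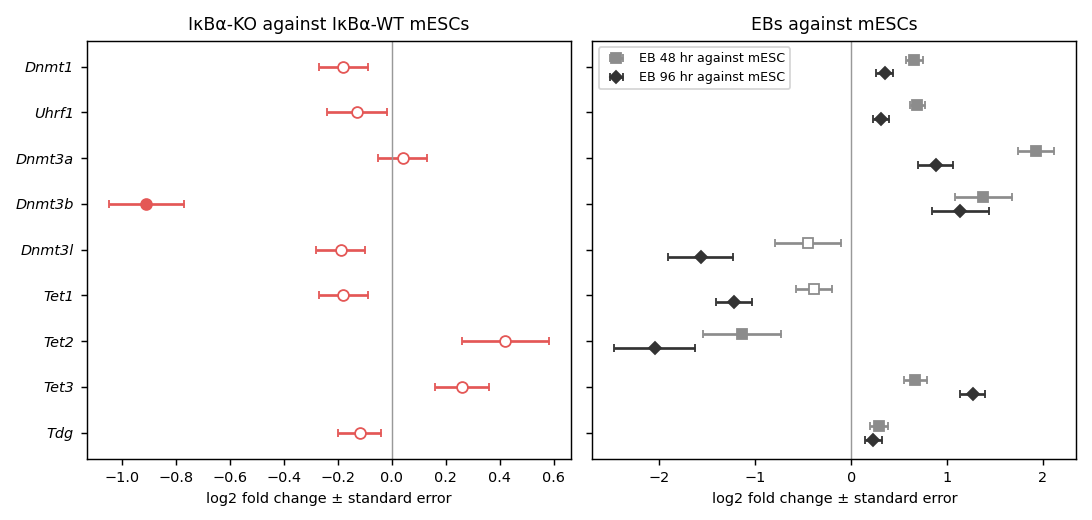
Log2 fold change and standard error from edgeR for each enzyme, between IκBα-KO and IκBα-WT mESCs on the left and between EBs and mESCs on the right. Filled symbols have an adjusted p under 0.05. In mESCs only Dnmt3b is filled, at -0.91, and by 96 hr Dnmt3l, Tet1 and Tet2 lie at -1.57, -1.22 and -2.05 while the other 6 lie between 0.23 and 1.27.

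Levels of different genes were compared as RPKM, the CPM per kilobase of merged exons. In mESCs (n = 6) the mean was highest for Dnmt3l (162 ± 17.4 RPKM, SD), then Dnmt3b (108 ± 41.1) and Uhrf1 (93.6 ± 11.8), whose ranges overlapped in turn. The order of the latter pair differed by genotype, with Dnmt3b at 141 and Uhrf1 at 97.8 RPKM in WT clones and at 75.1 and 89.5 RPKM in KO clones. Dnmt1 (42.7 ± 4.22) and Tet1 (34 ± 3.65) overlapped each other, as did Tdg (9.31 ± 0.663), Tet2 (8.87 ± 2) and Dnmt3a (8.36 ± 0.648), and Tet3 was lowest at 0.942 ± 0.106. At 96 hr Dnmt3b led with 238 ± 53.9 RPKM, above Uhrf1 at 116 ± 9.73 without overlap. Dnmt1 and Dnmt3l followed at 54.5 ± 5.78 and 54.4 ± 37.4, and Tet3 and Tet2 were lowest at 2.27 ± 0.37 and 2.14 ± 1.39, with overlapping ranges. This ranking was not repeated with another length. Merged exons were 16695 bases for Tet3, 16870 for Tet2 and 16642 for Dnmt3a. The transcripts with the longest coding sequence were 5944, 9021 and 9685 bases.

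Within the DNMT3 family, the main transcript changed from Dnmt3l to Dnmt3b. Dnmt3b held 43.5% ± 3.11 (SD, n = 3) of the summed level in WT mESCs, 31.9% ± 2.76 (SD, n = 3) in KO mESCs, 62% ± 13.5 (SD, n = 6) at 48 hr and 78.2% ± 10.8 (SD, n = 6) at 96 hr. The share of Dnmt3l went from 53.9% ± 2.93 in WT and 64.4% ± 2.58 in KO mESCs to 16.9% ± 10.4 at 96 hr, and Dnmt3a held at most 9.88% in any library by merged exons. Although Dnmt3b transcripts fell from 48 hr to 96 hr in E14, H7 and H9, their Dnmt3b shares went from 77.8%, 68.8% and 75.4% to 85%, 88.1% and 88.1%. Within the TET family, Tet1 held 68.6% to 85.9% in every library by merged exons. Tet3 went from 1.94% ± 0.159 in WT mESCs to 13.7% ± 6.34 at 96 hr, and Tet2 from 17% ± 1.23 to 10.3% ± 3.57. With the length of the transcript that has the longest coding sequence in place of the merged exons, a choice made after seeing the data, Dnmt3b held 35.6% in WT mESCs and 72.3% at 96 hr, and Tet1 70.1% and 58.9%, with a lowest share of 47.8% in a library. Relative to its size, the Tet3 share moved most with this choice, to 4.37% in WT mESCs and 27.1% at 96 hr, where its highest library held 42.8%. The highest Dnmt3a share in a library became 12%, at 48 hr.

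**Figure D3:**
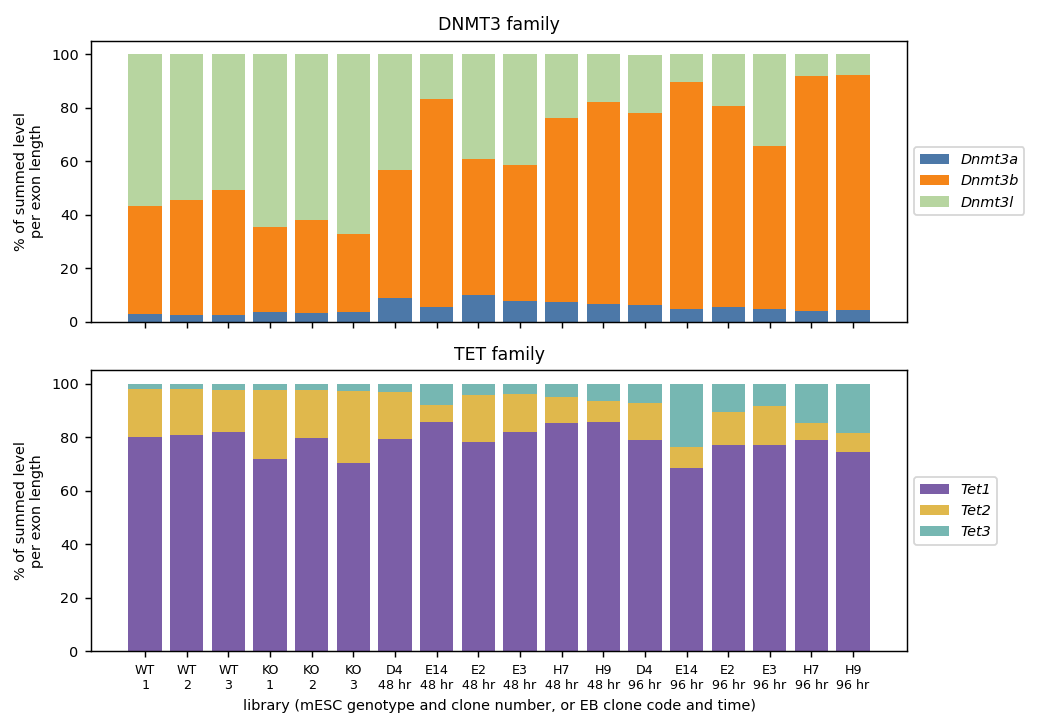
Share of each gene in the summed level per exon length (percent, linear axis from 0) of the DNMT3 family above and the TET family below, 1 bar per library. Dnmt3b held 29.2% to 46.8% of the DNMT3 sum in mESCs and 61% to 88.1% at 96 hr, and Tet3 held 7.19% to 23.6% of the TET sum at 96 hr.

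Genes that act with these enzymes moved in both directions. Their counts stand against 3.09% of all genes called higher and 1.69% lower in KO mESCs, 14.9% and 13% at 48 hr against mESCs, and 13.9% and 13.8% at 96 hr against 48 hr. Of 8 maintenance partners, 1 was higher in KO mESCs, the ligase gene Lig1 (log2 fold change 0.47, edgeR adjusted p = 0.0125). At 96 hr against 48 hr 4 of the 8 were lower and 1 higher. Dppa3, which restrains UHRF1, was lower by -1.33 (edgeR adjusted p = 0.00466), Hells, a chromatin remodeller needed for methylation, by -0.75 (0.000597), and Uhrf2 was higher by 0.81 (0.000108). Of the 9 tested regulators of de novo methylation, 3 were lower in KO mESCs (list median -0.19), Nsd1, a histone H3K36 methyltransferase, by -0.4 (edgeR adjusted p = 0.0133), Ehmt1 by -0.33 (0.0337) and Trim28 by -0.3 (0.0452). At 48 hr 3 were higher and 2 lower, among them Prdm14, a repressor of Dnmt3b in naïve cells, at -1.59 (edgeR adjusted p = 0.00989), Zfp57, which protects imprints, at -1.56 (0.000574) and Nsd1 at 0.71 (1.54e-05).

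Against the 4.79% of all genes called in KO mESCs, of the 7 tested TET cofactors and regulators 2 were higher in KO mESCs, Idh2 by 0.55 (edgeR adjusted p = 0.0221) and Idh1 by 0.51 (0.0149), which encode enzymes that make the TET cosubstrate 2-oxoglutarate. At 48 hr both were lower than in mESCs, by -0.53 (edgeR adjusted p = 0.0441) and -0.86 (3.04e-05). Cxxc4, whose protein lowers TET2, was higher by 2.4 at 48 hr (edgeR adjusted p = 0.000471) and by 3.8 at 96 hr (4.05e-06) against mESCs, while Tet2 transcripts were lower at both times. Of 14 base excision repair genes 1 differed in KO mESCs, a share near that of all genes, the stress gene Gadd45g (-1.42, edgeR adjusted p = 0.0223), which was higher by 1.6 at 48 hr (0.0145). Of 9 genes of the methyl donor cycle 1 was higher in KO mESCs, Shmt2 (0.45, edgeR adjusted p = 0.0168), and 5 were lower and 1 higher at 96 hr against 48 hr (13.8% and 13.9% of all genes), Mat2a, which makes the methyl donor, by -0.58 (4.14e-05). Of 8 methyl-CpG binding proteins 2 were higher and 2 lower at 96 hr against 48 hr, where 13.9% and 13.8% of all genes were, and Zbtb4, which binds methylated sites through zinc fingers, was higher by 2.19 (edgeR adjusted p = 0.000161).

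Of 13171 well-counted genes (50 or more counts on average), the 2 whose log2 CPM followed each enzyme most closely over the 18 libraries were Pgd and Cnot9 for Dnmt1 (Pearson r of 0.996 and 0.975), Drosha and Lage3 for Uhrf1 (0.969 and 0.967), Lsm7 and Mcm2 for Dnmt3a (0.982 and 0.972), and Foxi3 and Pou3f1 for Dnmt3b (0.97 and 0.965). They were Gm14393 and Gpa33 for Dnmt3l (0.991 and 0.988), Nr0b1 and Morc3 for Tet1 (both 0.981), Zfp42 and Panct2 for Tet2 (both 0.989), Ncs1 and Rhog for Tet3 (0.983 and 0.97) and Acsl4 and Gm9855 for Tdg (0.938 and 0.916). Zfp42 and Nr0b1 are genes of the naïve state and Pou3f1 of the formative state. The libraries share stages and clones, so these values are descriptions.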

How the data were processed

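RNA-seq libraries of 18 samples were used. The authors trimmed reads with Trim Galore 0.6.6, aligned them with STAR 2.7.8 to GRCm38 with Ensembl annotation and assigned unique alignments to exons with featureCounts (Subread 2.0.1), and they deposited whole-number counts without normalization for 55487 genes. The authors also deposited values on a log2 scale for 25318 genes, from the variance-stabilizing transformation of DESeq2 1.38.3, which served only as an alternative. The total counts per library ranged from 28287582 to 40904247, and each enzyme had at least 414 counts in every library (fewest for Tet3 in mESCs), well above the filter.

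The members and gene lists were chosen with earlier results of these data known. Genes reaching 10 counts in total in a fit were tested with edgeR 4.0.16 in R 4.3.3 (TMM scaling, robust quasi-likelihood test, Benjamini-Hochberg adjustment over all genes, called at an adjusted p under 0.05), the mESC genotypes on 6 libraries and the stages on 18. A standard error here is the size of the log2 fold change over the root of edgeR's F. The comparison of genotypes in EBs is not analysed here. CPM levels use TMM factors of all 18 libraries, log2 CPM a prior count of 2, and symbols, positions and exon lengths came from GENCODE M21. Genes named are the 9 enzymes, Nfkbia, at most the 4 largest called changes of each list, and the 2 genes most like each enzyme. In a simulation of the mESC design on 21404 genes, edgeR recovered 90 of 104 genes changed by 1 log2 unit (86.5%). Of 96 genes changed by 2 log2 units it recovered 94 (97.9%), and beside these it made 18 false calls.

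Replicate numbers of mESC clones did not pair WT and KO clones, whose deviations correlated at -0.117, -0.00783 and -0.0284. EB libraries with the same clone code deviated together (correlations of 0.396 to 0.734 over 6 codes), so the code pairs the 48 hr and 96 hr libraries. Alternatives were DESeq2 size factors, the DESeq2 1.42.0 Wald test, no filter, filterByExpr, limma 3.58.1 on the deposited log2 values, a fold change threshold, each mESC clone left out, the block, offsets for windows of 10 Mb, and either mESC genotype as the reference for EBs.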

Additional observations from a re-analysis of the deposited data

Results flagged for a closer look

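Of 18 sets of EB values (9 genes at 2 times, 6 libraries each), 2 had a library far from the rest by Dixon's ratio, the gap to the nearest library divided by the whole range compared with its 95% critical value. Chance alone flags about 1 in 20 such sets. For Dnmt1 at 48 hr the ratio was 0.95 for the lowest library, clone code E3 with 374 CPM against 520 to 529 CPM in the others, and the median gene within the same 10 Mb was at -0.45 in E3. For Tet3 at 96 hr the ratio was 0.679 for the highest library, clone code E14 with 50.1 CPM against 32.6 to 37.5 CPM, where the median gene of the 10 Mb around Tet3 was at 0.07.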

How the results depend on the processing

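With an absolute log2 fold change over 1 also required, the number of genes called was 372 in KO mESCs, 2422 at 48 hr and 5278 at 96 hr against mESCs, and 3003 at 96 hr against 48 hr, with 0, 3, 5 and 2 of the 9 enzymes among them. The 0 follows from that threshold, since Dnmt3b was at -0.91 in KO mESCs. Without it edgeR and the DESeq2 Wald test each called 1 enzyme there, and 3 enzymes had an unadjusted p under 0.05 in edgeR. In KO mESCs the DESeq2 test called 2146 genes. With 1 clone left out, edgeR called between 0 and 3736 genes and between 0 and 4 enzymes. The 0 is without WT clone 2, where 3104 genes and 2 enzymes had an unadjusted p under 0.05 and DESeq2, run after seeing the data, called 993 genes and 1 enzyme. Without KO clone 2 the counts were 3736 and 4 (Dnmt3b, Uhrf1, Tet1 and Tet2), without WT clone 3 the count was 34 genes, and 318, 381 and 264 genes when WT clone 1, KO clone 1 and KO clone 3 were left out. The log2 fold change of Dnmt3a ran from -0.035, a reversal without KO clone 3, to 0.11 without WT clone 3 among fits that left out a clone, and was 0.17 with an offset for each 10 Mb window. The cause of the reversal was not tested. With the replicate number as a block, edgeR called 631 genes in KO mESCs, and Dnmt3b stayed under the threshold (adjusted p = 0.018). With the clone code as a block, Tet2 passed at 96 hr against 48 hr (8994 genes called), and the block changed no other call of an enzyme. With an offset for each 10 Mb window the adjusted p of Dnmt3b was 0.0228. Apart from the fold change threshold, 296 of 315 values of single enzymes kept their direction and their side of the threshold, the exceptions being given beside each gene. Each enzyme had at least 414 counts in every library.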

Other observations

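The EB libraries, whose clone codes no label pairs with a genotype, fell into the same separate sets for some enzymes and overlapped for others. At 48 hr Dnmt3b had 740, 875 and 816 CPM in D4, E2 and E3 and 2058, 1886 and 2245 CPM in E14, H7 and H9, and Tet2 had 112, 98.4 and 89.3 CPM in the first and 27.1, 48 and 33.3 CPM in the second. At 96 hr Dnmt3l had 238, 214 and 324 CPM in D4, E2 and E3 and 61.7, 83 and 55.1 CPM in E14, H7 and H9, and Tet1 had 333, 257 and 307 CPM against 135, 178 and 138 CPM. Tet2 had 62.4, 44.7 and 62.8 CPM against 16.8, 16.1 and 14.1 CPM, and Dnmt3a 372, 348 and 252 CPM against 155, 229 and 177 CPM. For Dnmt3b at 96 hr the sets overlapped, with 1343, 1430 and 988 CPM in D4, E2 and E3 and 865, 1573 and 1096 CPM in E14, H7 and H9. They also overlapped for Dnmt3a at 48 hr, with 448, 551 and 406 CPM and 479, 656 and 641 CPM. The same held for Dnmt1 and Uhrf1 at both times, and for Tet3 and Tdg at 96 hr. The share of all genes that separate these sets was not counted. Nfkbia, the targeted gene, had 7.89, 7.31 and 8.65 CPM in D4, E2 and E3 at 48 hr. In E14, H7 and H9 it had 12.6, 14.9 and 10.7 CPM. At 96 hr it had 4.97, 7.01 and 8.53 CPM in the first set and 19.9, 14.5 and 23 CPM in the second. No genotype was assigned from these values. Some genes of cell state differed between the same libraries, and others overlapped. Among those that overlapped at 96 hr, Pou5f1 had 783, 727 and 787 CPM in D4, E2 and E3 and 416, 826 and 643 CPM in E14, H7 and H9. Otx2 had 85.6, 80.9 and 45.1 CPM and 64.3, 63.8 and 63.5 CPM. Pou3f1 had 77.2, 97.9 and 54 CPM and 19.9, 63.1 and 46.4 CPM. At 96 hr the mesoderm gene T had 1.45, 0.97 and 0.708 CPM in D4, E2 and E3 and 354, 268 and 510 CPM in E14, H7 and H9, the naïve gene Zfp42 had 213, 157 and 204 CPM and 24.9, 34.1 and 29.7 CPM, and Prdm14 had 5.26, 4.3 and 6.14 CPM and 1.1, 1.21 and 1.62 CPM. Their part in the levels of the enzymes was not tested. These are values only, and no test was run on sets formed from them.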
